A study of Mus musculus with 18 samples.

Results

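The genes described here encode the machinery of the endoplasmic reticulum (ER) that takes in, folds and checks secreted and membrane proteins. They are 32 mouse genes chosen by name, of 54614 genes kept from the table and 15254 genes tested, and each was found in 1 row. By role, 6 belong to the translocon, 9 are chaperones and their cofactors, 6 are lectins or disulfide enzymes, 3 are stress sensors or their effector, and 8 serve ER-associated degradation. All 32 passed the filter on low values. The samples were kidneys of mice with the genotype given as WT, taken 1, 7 and 14 days after transplantation associated with cold storage (labelled Ktx) or after a sham procedure, with 3 libraries in each of the 6 groups and 18 in all. RNA came from the renal cortex. Strain, sex, age and graft donor are not given in the labels, and the labels do not tie the 3 libraries of a group to 3 mice. The p-values below are therefore set by library-to-library variation, part or all of which may be technical. Parts of the labels name a rat proximal tubular cell line and a protocol of streptozotocin diabetes with ischemia and reperfusion. The table lists mouse genes, 10 proximal tubule markers summed to 3820 to 4273 FPKM in sham libraries, and the groups were read from the titles and the treatment label.

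Proteins enter the ER through the Sec61 channel and are folded by the Hsp70 chaperone BiP (gene Hspa5) with its J-domain partners, by the lectins calreticulin and calnexin, and by protein disulfide isomerases. Proteins that fail are carried back to the cytosol and degraded. When unfolded proteins build up, the sensors IRE1 (Ern1), ATF6 and PERK start the unfolded protein response, in which spliced XBP1 and cleaved ATF6 raise chaperone and degradation genes. Proximal tubule cells make large amounts of membrane transporters, and ER stress markers are commonly studied in injured kidney.

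The promoters of many of these genes carry the ER stress response element (ERSE), to which ATF6 binds together with NF-Y. Of the 32 members, 26 were in the RefSeq promoter table (GRCm38.p6, 250 bases before to 50 after each start), and Derl1, Ssr2, Atf6, Manf, Hyou1 and Sec61a1 were not. The ERSE, searched on both strands as CCAAT and CCACG with 9 bases of any kind between them, was found in 9 of the 26, against 0.137% of all 27025 genes in the table. Since many of these genes were already known to carry the element, this higher share is background and not a test. A second form, ERSE-II, ATTGG and CCACG with 1 base between them, was found in 2 of the 26, Dnajb11 and Herpud1, against 0.0444% of genes, and no member held both. The XBP1 element TGACGTGG was found in 0 of the 26, against 0.714% of genes. The matches before the start are shown because the results below turn on several of these genes. CCAAT and CCACG of ERSE, or ATTGG and CCACG of ERSE-II, are in capitals, and each sequence is written 5′ to 3′ on the strand that carries the motif.
Hspa5 (chr2:34772020-34772048, plus strand): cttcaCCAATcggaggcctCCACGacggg
Hsp90b1 (chr10:86705633-86705661, minus strand): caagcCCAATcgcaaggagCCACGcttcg
Hsp90b1 (chr10:86705528-86705556, plus strand): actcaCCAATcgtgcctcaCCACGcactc
Creld2 (chr15:88819515-88819543, minus strand): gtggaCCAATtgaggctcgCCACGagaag
Dnajc3 (chr14:118937822-118937850, plus strand): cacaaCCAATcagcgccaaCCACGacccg
Calr (chr8:84847070-84847098, plus strand): atgggCCAATgagggtcgaCCACGcgttg
Canx (chr11:50325795-50325823, minus strand): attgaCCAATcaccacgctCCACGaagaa
Pdia6 (chr12:17266486-17266514, plus strand): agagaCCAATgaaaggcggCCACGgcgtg
Syvn1 (chr19:6046527-6046555, plus strand): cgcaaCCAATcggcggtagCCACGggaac
Derl3 (chr10:75893237-75893265, minus strand): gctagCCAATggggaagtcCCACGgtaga
Herpud1 (chr8:94386372-94386392, plus strand): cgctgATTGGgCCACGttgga
The Hspa5 match ended 46 bases before the RefSeq start and that of Syvn1 25 bases before it, while the 2 matches of Hsp90b1 lay 193 and 88 bases before it.

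The files give fragments per kilobase of transcript, scaled to the library (FPKM), with no counts, so sequencing depth is unknown and low values are imprecise. The FPKM of a library summed to 386928 to 524435, and mitochondrial genes held 14.4% to 27.7% of that sum in transplant libraries and 28.8% to 31.6% in sham libraries. Fold changes are on the scale of log2(FPKM + 1) and a gene is called when its limma adjusted p is below 0.05. On this scale all tested genes had a median of 0.31, 0.41 and 0.27 at days 1, 7 and 14, against 0.03, 0.02 and 0.02 under median-of-ratios scaling, so a member near these values held its place among all genes. Calls under that second scaling are given as relative changes, by member or as counts of a role group or list. Cell markers moved too. The summed FPKM of 10 macrophage markers was 250.1 to 506 in transplant and 19.9 to 35.1 in sham at day 7, and that of 10 proximal tubule markers was 500.3 to 982 in transplant and 4141 to 4273 in sham at day 1. In bulk tissue fewer cells of a type and less RNA per cell cannot be told apart.

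The counts of called members differed between days. Those of day 1 in the main fit, and of day 7 under median-of-ratios scaling, lay near or below the shares of all tested genes. Fewer members were lower at day 14 over the earlier sham libraries, as given further below. At day 1, 7 members were higher and 3 lower in transplant, when 29.6% of all tested genes were called higher and 9.56% lower. Of the 7 higher members 4 were translocon genes. At day 7, 18 members were higher and 0 lower, against 35.5% and 6.01% of tested genes, with the chaperones Hspa5 and Hsp90b1 among the 18. At day 14, 1 member was higher and 10 were lower, against 22.4% and 5.12% of tested genes. The 32 members had a median log2 fold change of 0.23, 0.46 and -0.19 at days 1, 7 and 14. Under median-of-ratios scaling the counts were 3 higher and 11 lower at day 1 (background 14.8% and 15.5%), 3 and 4 at day 7 (11.7% and 12.8%) and 0 and 18 at day 14 (11.5% and 11.1%), and the medians were -0.14, -0.02 and -0.51. The fold changes of 15, 18 and 3 members lay above the median of all tested genes at days 1, 7 and 14. All 3 transplant libraries lay above all 3 sham libraries for 9, 22 and 2 members at days 1, 7 and 14 (background 37.9%, 48.5% and 31.6%), and below them for 4, 0 and 10 members (11.9%, 8.74% and 7.34%).

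**Figure D1:**
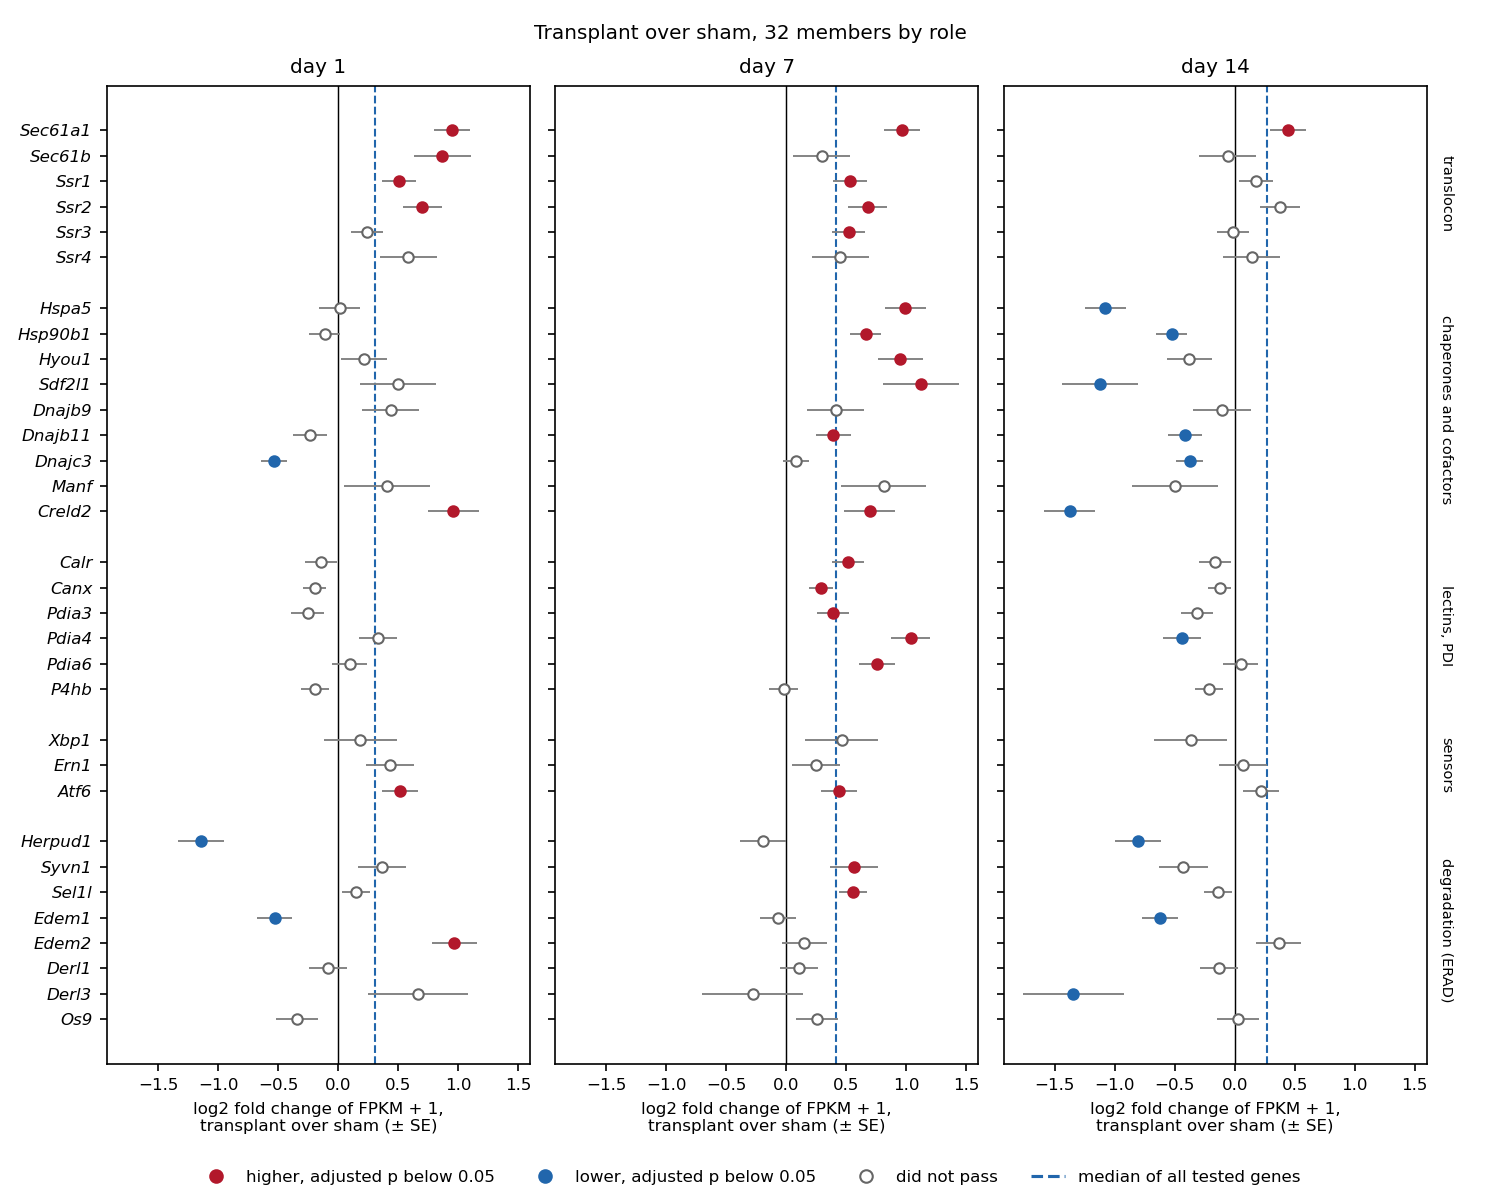
Log2 fold change (transplant over sham, log2(FPKM + 1) scale, ± SE, 3 libraries a group) of the 32 members at days 1, 7 and 14, grouped by role, with filled points for calls and a dashed line at the median of all tested genes. At day 7 called members lie right of 0, with 18 higher and 0 lower, but some of them lie left of the dashed line at 0.41. At day 14 the 10 lower members are mostly chaperones and degradation genes, and the dashed line lies at 0.27.

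Of the 6 translocon genes, 4 were higher in transplant and 0 lower at day 1, with a median of 0.65, and 4 were higher at day 7, with a median of 0.52. At day 14 only Sec61a1 passed. Of all tested genes 29.6%, 35.5% and 22.4% were higher at days 1, 7 and 14, or 14.8%, 11.7% and 11.5% under median-of-ratios scaling. Under median-of-ratios scaling 1 of 6, Sec61a1, was called at day 1 and at day 7 and none at day 14. In FPKM without that scaling, 5 of the 6 had their highest group mean in transplant at day 1. The summed FPKM of the 6 was 287 to 345 in transplant and 187 to 211 in sham at day 1, 288 to 298 in transplant and 183 to 202 in sham at day 7, and 199 to 255 in transplant and 198 to 214 in sham at day 14. Sec61a1, the pore-forming subunit of the channel (chr6:88503579-88518905, minus strand), measured 42.7, 64.2 and 43.9 FPKM in transplant libraries, against 26.1, 27.4 and 22.2 FPKM in sham libraries at day 1. At day 7 it measured 48.8, 42.04 and 46.1 FPKM in transplant libraries, against 24.9, 21.8 and 22.1 FPKM in sham libraries. The values of day 14 were 35.4, 34.1 and 39.2 FPKM in transplant libraries, against 28.5, 23.04 and 28.01 FPKM in sham libraries. The groups did not overlap on any of the 3 days, with log2 fold changes of 0.95 ± 0.15 (SE; adjusted p = 6.80e-05) at day 1, 0.96 ± 0.15 (SE; adjusted p = 8.03e-05) at day 7 and 0.44 ± 0.15 (SE; adjusted p = 0.0359) at day 14. Under median-of-ratios scaling it was 0.57, 0.49 and 0.13. The day 14 call was lost without sham day 14 replicate 2 or 3 or transplant day 14 replicate 1 or 3, with an adjusted p of up to 0.147.

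Sec61b, a small subunit of the same channel, measured 43.3, 62.4 and 34.6 FPKM in transplant libraries, against 20.7, 23.6 and 29.6 FPKM in sham libraries at day 1, with no overlap and a log2 fold change of 0.87 ± 0.24 (SE; adjusted p = 0.00747). Without transplant day 1 replicate 2, its highest library, the adjusted p was 0.0532. Its difference at day 7 was 0.29 (adjusted p = 0.335). Ssr1 to Ssr4 encode the translocon-associated protein complex, which sits beside the channel and aids the insertion of some proteins. Ssr2 measured 62.4, 71.6 and 48.6 FPKM in transplant libraries, against 35.4, 38.7 and 35.6 FPKM in sham libraries at day 1, a log2 fold change of 0.70 ± 0.16 (SE; adjusted p = 0.0023). At day 7 it measured 58.2, 52.4 and 57.6 FPKM in transplant libraries, against 34.1, 29.9 and 40.6 FPKM in sham libraries, a log2 fold change of 0.68 ± 0.16 (SE; adjusted p = 0.00336). Transplant libraries lay above sham libraries on both days, and at day 14 the difference was 0.38 (adjusted p = 0.0956). Ssr1 measured 16.8, 16.5 and 17.01 FPKM in transplant libraries, against 11.6, 11.4 and 10.96 FPKM in sham libraries at day 7, and its log2 fold change was 0.53 ± 0.14 (SE; adjusted p = 0.00673). It was also higher at day 1, at 0.51 ± 0.14 (SE; adjusted p = 0.00811), a call lost without sham day 1 replicate 1 (adjusted p = 0.0547). Ssr3, the most abundant of the 4, rose at day 7 alone, by 0.52 ± 0.14 (SE; adjusted p = 0.00598), with 90.5, 108 and 100.5 FPKM in transplant and 71.3, 66.8 and 69.2 FPKM in sham. Ssr4 did not pass at any day, with log2 fold changes of 0.59 (adjusted p = 0.0599), 0.45 (adjusted p = 0.137) and 0.14 (adjusted p = 0.699).

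Few chaperones and cofactors passed at day 1, most were higher in transplant at day 7, though 1 was under median-of-ratios scaling, and most were lower at day 14 under both scalings. Of these 9 genes, 1 was higher and 1 lower at day 1 (median 0.22), 6 were higher and 0 lower at day 7 (median 0.69), and 0 were higher and 6 lower at day 14 (median -0.50). The counts were 1 and 3, then 1 and 1, then 0 and 7 under median-of-ratios scaling. Shares of all tested genes were 29.6%, 35.5% and 22.4% higher and 9.56%, 6.01% and 5.12% lower. Under median-of-ratios scaling they were 14.8%, 11.7% and 11.5% higher and 15.5%, 12.8% and 11.1% lower. The summed FPKM of the 9 was 414 to 515 in transplant and 426 to 487 in sham at day 1, 737 to 818 in transplant and 420.0 to 519 in sham at day 7, and 427 to 473 in transplant and 680.1 to 888 in sham at day 14. The transplant sums at day 14 thus lie near those of sham at days 1 and 7, and the sham sums at day 14 lie above those of the earlier sham groups.

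Hspa5, which encodes BiP, the central Hsp70 of the ER (chr2:34771970-34777547, plus strand), measured 163, 179 and 131 FPKM in transplant libraries, against 134, 174 and 161 FPKM in sham libraries at day 1. Transplant and sham overlapped there, and the log2 fold change was 0.01 ± 0.17 (SE; adjusted p = 0.962). At day 7 it measured 314, 269.6 and 313 FPKM in transplant libraries, against 152, 127 and 173 FPKM in sham libraries, with no overlap. At day 14 it measured 145, 145 and 109 FPKM in transplant libraries, against 353, 261 and 239 FPKM in sham libraries, again with no overlap but with sham on top. The log2 fold change was 0.99 ± 0.17 (SE; adjusted p = 0.00022) at day 7 and -1.08 ± 0.17 (SE; adjusted p = 0.000173) at day 14, and both calls held without any 1 library and under median-of-ratios scaling (0.50 and -1.40). Hsp90b1, the ER Hsp90 known as GRP94, followed the same order. It measured 255, 254 and 280.1 FPKM in transplant libraries, against 158, 149.8 and 192 FPKM in sham libraries at day 7. At day 14 the values were 181, 178 and 181 FPKM in transplant libraries, against 275, 226 and 282 FPKM in sham libraries. The groups were apart on both days. The log2 fold changes were 0.66 ± 0.13 (SE; adjusted p = 0.000666) and -0.53 ± 0.13 (SE; adjusted p = 0.00573), and at day 1 -0.11 (adjusted p = 0.53). Under median-of-ratios scaling Hsp90b1 was lower at day 1 (-0.49, adjusted p = 0.0131) and did not pass at day 7 (0.17, adjusted p = 0.428).

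**Figure D2:**
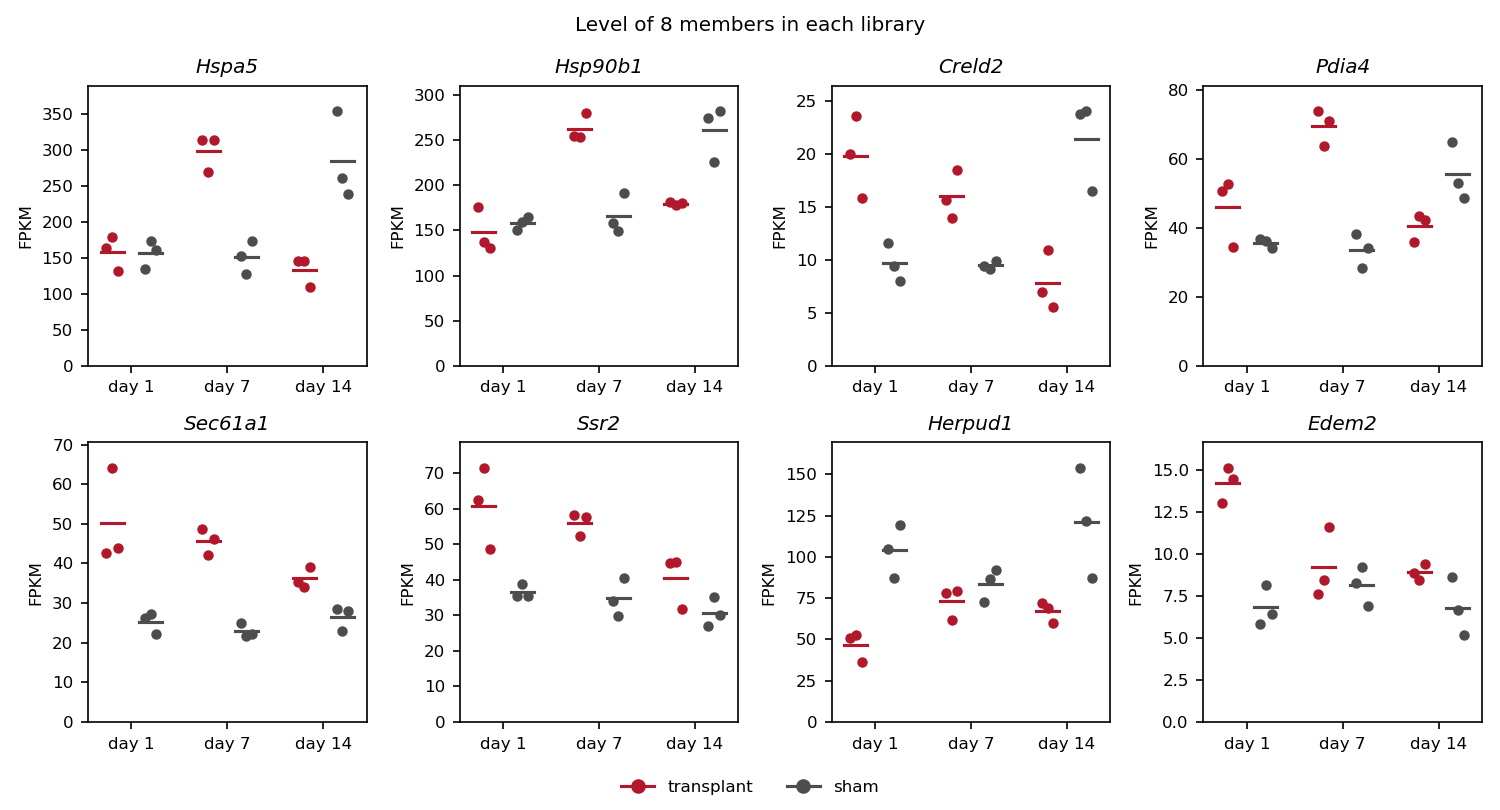
FPKM of 8 members in each of the 18 libraries (points) with the group mean (bar), transplant in red and sham in grey, by day. Hspa5, Hsp90b1 and Pdia4 are highest in transplant at day 7 and in sham at day 14, while Sec61a1 in transplant lies above sham on all 3 days.

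Hyou1 (GRP170), which exchanges nucleotide on BiP, measured 42.3, 37.1 and 36.3 FPKM in transplant libraries, against 21.4, 17.5 and 19.6 FPKM in sham libraries at day 7. This was a log2 fold change of 0.95 ± 0.19 (SE; adjusted p = 0.000737). At day 14 the groups overlapped and the difference was -0.38 (adjusted p = 0.141). Under median-of-ratios scaling Hyou1 did not pass at day 7 (0.48, adjusted p = 0.0548) and was lower at day 14 (-0.69, adjusted p = 0.0075). Sdf2l1, which works with BiP and its J-domain partners, had the widest range of the members above 0 in every library, 6.60-fold between its highest and lowest. It measured 7.67, 7.53 and 10.7 FPKM in transplant libraries, against 2.0, 4.29 and 4.3 FPKM in sham libraries at day 7. The values of day 14 were 4.98, 2.01 and 4.86 FPKM in transplant libraries, against 13.2, 8.96 and 6.68 FPKM in sham libraries. The groups did not overlap on either day. The log2 fold changes were 1.12 ± 0.32 (SE; adjusted p = 0.00952) and -1.12 ± 0.32 (SE; adjusted p = 0.0141). The first was lost without sham day 7 replicate 1, its lowest library (adjusted p = 0.058), and the second without sham day 14 replicate 1 or transplant day 14 replicate 2 (adjusted p up to 0.0783). Under median-of-ratios scaling Sdf2l1 did not pass at day 7 (0.71, adjusted p = 0.124) and was lower at day 14 (-1.40, adjusted p = 0.00411).

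Creld2, an ER stress-inducible gene of disulfide chemistry (chr15:88819646-88826683, plus strand), was the chaperone-group member with a rise at day 1. It measured 19.99, 23.6 and 15.9 FPKM in transplant libraries, against 11.6, 9.38 and 8.0 FPKM in sham libraries at day 1. The values of day 7 were 15.7, 13.99 and 18.5 FPKM in transplant libraries, against 9.39, 9.12 and 9.93 FPKM in sham libraries. Those of day 14 were 6.93, 10.9 and 5.55 FPKM in transplant libraries, against 23.8, 24.01 and 16.5 FPKM in sham libraries. Transplant libraries lay above sham at the first 2 times and below sham at day 14, where the sham libraries lay above every earlier sham library. Its log2 fold changes were 0.96 ± 0.21 (SE; adjusted p = 0.00155), 0.69 ± 0.21 (SE; adjusted p = 0.0152) and -1.37 ± 0.21 (SE; adjusted p = 0.000141). The day 7 call was lost without transplant day 7 replicate 3 (adjusted p = 0.0646) and under median-of-ratios scaling (0.24, adjusted p = 0.449).

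The J-domain partners did not share one pattern. Dnajc3, which aids BiP and is known as an inhibitor of PERK, measured 27.9, 26.04 and 23.98 FPKM in transplant libraries, against 36.6, 37.2 and 40.04 FPKM in sham libraries at day 1 and was lower, by -0.53 ± 0.11 (SE; adjusted p = 0.000809). Its transplant libraries were all below sham at day 1. At day 14 it was lower as well, at -0.38 ± 0.11 (SE; adjusted p = 0.0156), a call lost without sham day 14 replicate 1 (adjusted p = 0.0757), and at day 7 it did not pass (0.08 (adjusted p = 0.577)), while under median-of-ratios scaling it was lower, at -0.40 (adjusted p = 0.0106). Dnajb11 (ERdj3) was higher at day 7, at 0.39 (adjusted p = 0.0363), and lower at day 14, at -0.42 (adjusted p = 0.0386). Its day 7 call held only with all libraries or without sham day 7 replicate 3 (adjusted p otherwise up to 0.0999), and its sign turned under median-of-ratios scaling (-0.09). Its day 14 call was lost without sham day 14 replicate 1 or transplant day 14 replicate 1 or 2 (adjusted p up to 0.193). Under median-of-ratios scaling Dnajb11 was lower at day 1 (-0.61, adjusted p = 0.00387) and day 14 (-0.73, adjusted p = 0.00153). Dnajb9 (ERdj4), a J-domain partner that also binds IRE1, did not pass at any day, with 0.44 (adjusted p = 0.156), 0.41 (adjusted p = 0.175) and -0.11 (adjusted p = 0.774). Manf, a secreted ER stress protein, did not pass either, and its sham day 14 libraries ran from 12.1 to 50.3 FPKM. Exons of Manf overlap those of the coding genes Dcaf1 and Rbm15b, and whether the counting used strand is not given in the sources used here.

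Of the 6 lectins and disulfide enzymes, 0 passed at day 1, 5 were higher at day 7 (median 0.45) and 1 was lower at day 14 (median -0.19). Under median-of-ratios scaling the counts higher and lower were 0 and 4, 1 and 1, and 0 and 5. All tested genes stood at 29.6%, 35.5% and 22.4% higher and 9.56%, 6.01% and 5.12% lower. With median-of-ratios scaling these were 14.8%, 11.7% and 11.5% higher and 15.5%, 12.8% and 11.1% lower. The summed FPKM at day 7 was 1017 to 1094 in transplant and 729 to 869.9 in sham. Pdia4 (ERp72), a disulfide isomerase of the BiP complex, measured 73.7, 63.5 and 70.8 FPKM in transplant libraries, against 38.1, 28.3 and 34.1 FPKM in sham libraries at day 7. In the day 14 libraries it measured 35.8, 43.3 and 42.3 FPKM in transplant libraries, against 64.8, 53.03 and 48.6 FPKM in sham libraries. Each pair of groups was fully apart, in opposite order, and the log2 fold changes were 1.04 ± 0.16 (SE; adjusted p = 7.54e-05) and -0.44 ± 0.16 (SE; adjusted p = 0.0481). The day 14 call was lost without any 1 library other than sham day 14 replicate 3 (adjusted p up to 0.195), while under median-of-ratios scaling it was -0.76 (adjusted p = 0.00174). Pdia6 (P5) measured 81.8, 80.7 and 87.9 FPKM in transplant libraries, against 50.02, 47.03 and 50.04 FPKM in sham libraries at day 7, a log2 fold change of 0.76 ± 0.15 (SE; adjusted p = 0.000672). Its difference at day 14 was 0.05 (adjusted p = 0.842). Under median-of-ratios scaling the day 7 call of Pdia6 was lost (0.27, adjusted p = 0.177), while Pdia4 passed at day 7 (0.55, adjusted p = 0.0133). Exons of Pdia6 overlap those of the coding gene Atp6v1c2 on the other strand, and those of Pdia3 the coding gene Catsper2.

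Calr, the soluble calcium-binding lectin calreticulin and the most abundant member at day 7, measured 328, 317 and 357 FPKM in transplant libraries, against 225, 211 and 267 FPKM in sham libraries at day 7. Its log2 fold change was 0.51 ± 0.13 (SE; adjusted p = 0.00545). Under median-of-ratios scaling Calr did not pass at day 7 (0.02, adjusted p = 0.929). It was lower at day 1 (-0.52, adjusted p = 0.0082) and day 14 (-0.49, adjusted p = 0.017) under that scaling. Canx, the membrane-bound counterpart of calreticulin, was at 0.29 (adjusted p = 0.0248) at day 7, and Pdia3 (ERp57), the disulfide isomerase that works with both, at 0.39 (adjusted p = 0.0275). Canx and Pdia3 turned sign at day 7 under median-of-ratios scaling (-0.20 and -0.10). Both day 7 calls were lost without sham day 7 replicate 1 or 2 or transplant day 7 replicate 2 or 3, with an adjusted p of up to 0.0901 for Canx and 0.117 for Pdia3. Under median-of-ratios scaling Canx and Pdia3 were lower at day 1 (-0.58 and -0.63, adjusted p = 0.000395 and 0.00264). They were also lower at day 14 under that scaling (-0.45 and -0.64, adjusted p = 0.00548 and 0.0041). P4hb, the classical protein disulfide isomerase, was the steadiest member. Its 18 libraries spanned a 1.36-fold range, and its log2 fold changes were -0.19 (adjusted p = 0.219), -0.02 (adjusted p = 0.891) and -0.21 (adjusted p = 0.195). Under median-of-ratios scaling P4hb was lower on all 3 days, at -0.57, -0.51 and -0.54 (adjusted p = 0.000747, 0.00265 and 0.00232).

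Of the 3 transcripts of sensors and their effector, Atf6 passed at days 1 and 7, when 29.6% and 35.5% of all tested genes were higher. None of the 3 passed on any day under median-of-ratios scaling. Atf6, a transcription factor released from the ER membrane, measured 11.7, 12.000 and 12.7 FPKM in transplant libraries, against 8.76, 7.31 and 8.49 FPKM in sham libraries at day 1. At day 7 it measured 11.8, 11.97 and 10.2 FPKM in transplant libraries, against 9.55, 8.92 and 6.21 FPKM in sham libraries. The day 14 values were 10.3, 10.8 and 9.7 FPKM in transplant libraries, against 8.93, 8.55 and 8.59 FPKM in sham libraries. Transplant libraries lay above sham on all 3 days, with log2 fold changes of 0.52 ± 0.15 (SE; adjusted p = 0.0104), 0.44 ± 0.15 (SE; adjusted p = 0.0276) and 0.22 ± 0.15 (SE; adjusted p = 0.302), of which the first 2 passed. Without sham day 1 replicate 2 the day 1 adjusted p was 0.0509. The day 7 call was lost without sham day 7 replicate 3 or transplant day 7 replicate 1 or 2 (adjusted p up to 0.161), and under median-of-ratios scaling neither day passed (0.17 and -0.0091).

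Ern1, which encodes IRE1, the kinase and RNase that splices Xbp1, measured 4.7, 6.8 and 5.33 FPKM in transplant libraries, against 3.61, 3.92 and 4.08 FPKM in sham libraries at day 1. At day 7 it measured 5.66, 4.95 and 4.75 FPKM in transplant libraries, against 4.37, 5.24 and 3.09 FPKM in sham libraries. For day 14 the values were 5.94, 3.72 and 3.56 FPKM in transplant libraries, against 4.2, 3.9 and 4.07 FPKM in sham libraries. The day 1 groups did not overlap, but no day passed, with log2 fold changes of 0.43 (adjusted p = 0.0976), 0.25 (adjusted p = 0.335) and 0.07 (adjusted p = 0.829). Xbp1 measured 67.01, 64.2 and 58.4 FPKM in transplant libraries, against 92.2, 40.6 and 45.2 FPKM in sham libraries at day 1. At day 7 it measured 69.2, 64.9 and 65.8 FPKM in transplant libraries, against 31.9, 39.9 and 86.8 FPKM in sham libraries. At day 14 it measured 68.96, 49.3 and 47.01 FPKM in transplant libraries, against 69.000, 86.95 and 57.96 FPKM in sham libraries. Sham libraries spread widely within the groups of days 1 and 7, so differences of 0.19 (adjusted p = 0.665), 0.46 (adjusted p = 0.23) and -0.37 (adjusted p = 0.395) were not detectable against that spread. A gene-level FPKM does not separate spliced from unspliced Xbp1, so IRE1 activity was not measured.

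Among the degradation genes Herpud1 and Edem1 were lower at days 1 and 14. Of the 8, 1 was higher and 2 lower at day 1 (median 0.03), 2 higher and 0 lower at day 7 (median 0.13), and 0 higher and 3 lower at day 14 (median -0.29). The counts were 1 and 4, 0 and 2, and 0 and 6 under median-of-ratios scaling. Among all tested genes 29.6%, 35.5% and 22.4% were higher and 9.56%, 6.01% and 5.12% lower. Under median-of-ratios scaling 14.8%, 11.7% and 11.5% were higher and 15.5%, 12.8% and 11.1% lower. Herpud1, a membrane scaffold of the Hrd1 ubiquitin ligase (chr8:94386438-94395377, plus strand), measured 51.1, 52.8 and 36.2 FPKM in transplant libraries, against 105, 87.4 and 119 FPKM in sham libraries at day 1. It measured 72.1, 68.9 and 60.2 FPKM in transplant libraries, against 154, 122 and 87.5 FPKM in sham libraries at day 14. Each transplant library was below each sham library on both days, and the log2 fold changes were -1.15 ± 0.19 (SE; adjusted p = 0.000121) and -0.81 ± 0.19 (SE; adjusted p = 0.00445). At day 7 the groups overlapped, at -0.20 (adjusted p = 0.423), though under median-of-ratios scaling the value was -0.68 (adjusted p = 0.0107). Edem1, which trims mannose from misfolded glycoproteins, measured 12.5, 12.2 and 12.000 FPKM in transplant libraries, against 22.4, 15.4 and 17.1 FPKM in sham libraries at day 1. At day 14 it measured 11.8, 11.1 and 11.2 FPKM in transplant libraries, against 19.8, 19.5 and 15.2 FPKM in sham libraries. Both differences were falls with no overlap, of -0.53 ± 0.15 (SE; adjusted p = 0.00897) and -0.62 ± 0.15 (SE; adjusted p = 0.00482). The day 1 call was lost without sham day 1 replicate 1 (adjusted p = 0.0666). At day 7 Edem1 did not pass (-0.07, adjusted p = 0.723), though under median-of-ratios scaling it was lower (-0.53, adjusted p = 0.0121).

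Its relative Edem2 moved the other way at day 1, with 13.1, 15.1 and 14.4 FPKM in transplant libraries, against 5.85, 8.18 and 6.43 FPKM in sham libraries. The log2 fold change of Edem2 was 0.97 ± 0.19 (SE; adjusted p = 0.000476) at day 1 and 0.62 under median-of-ratios scaling, and days 7 and 14 did not pass (0.15 (adjusted p = 0.538) and 0.37 (adjusted p = 0.156)). Syvn1, the Hrd1 ubiquitin ligase itself, measured 12.8, 9.97 and 11.2 FPKM in transplant libraries, against 6.34, 7.73 and 7.88 FPKM in sham libraries at day 7. Sel1l, its partner, measured 33.6, 28.1 and 27.8 FPKM in transplant libraries, against 20.4, 20.9 and 18.7 FPKM in sham libraries at day 7. Both were higher with no overlap, by 0.56 ± 0.20 (SE; adjusted p = 0.0328) for Syvn1 and 0.55 ± 0.12 (SE; adjusted p = 0.00132) for Sel1l. The Syvn1 call was lost without sham day 7 replicate 1 or 2 or transplant day 7 replicate 1 or 3 (adjusted p up to 0.113), and neither gene passed at day 7 under median-of-ratios scaling (0.12 and 0.08). At days 1 and 14 neither was called in the main fit, but under median-of-ratios scaling both were lower at day 14. Exons of Syvn1 overlap those of the coding gene Mrpl49 on the other strand.

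Derl3, a derlin of the membrane channel for retrotranslocation, was the least abundant member, at 0 to 3.55 FPKM over the 18 libraries. It measured 0.27, 0.09 and 0 FPKM in transplant libraries, against 0.24, 3.02 and 3.55 FPKM in sham libraries at day 14. The groups overlapped, 1 sham library being below the highest transplant library, and the log2 fold change of -1.35 ± 0.42 (SE; adjusted p = 0.0238) was lost without sham day 14 replicate 2 or 3 or transplant day 14 replicate 2 or 3 (adjusted p up to 0.118). Derl1, its more widely expressed relative, spanned a 1.58-fold range over all libraries and passed at no day, with -0.08 (adjusted p = 0.717), 0.10 (adjusted p = 0.617) and -0.13 (adjusted p = 0.578). Os9, a lectin that hands substrates to Sel1l, did not pass either, at -0.34 (adjusted p = 0.137), 0.26 (adjusted p = 0.252) and 0.03 (adjusted p = 0.927). Under median-of-ratios scaling Derl1 and Os9 were lower at day 1 (-0.45 and -0.71), and Derl1 was lower at day 14 as well.

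The change of the transplant effect between days was tested directly. From day 1 to day 7 the effect rose for 3 members and fell for 0, against 3.06% and 1.31% of tested genes, and the 3 were Hspa5 (0.98 ± 0.24 (SE; adjusted p = 0.0253)), Hsp90b1 (0.77 ± 0.18 (SE; adjusted p = 0.0193)) and Dnajc3 (0.61 ± 0.15 (SE; adjusted p = 0.0282)). Under median-of-ratios scaling 1 member, Hspa5, rose and 0 fell, against 2.01% and 1.74% of tested genes. From day 7 to day 14 the effect fell for 6 members and rose for 0, against 0.262% and 0.354% of tested genes. The 6 were Hspa5 (-2.07 ± 0.24 (SE; adjusted p = 0.000292)), Hsp90b1 (-1.19 ± 0.18 (SE; adjusted p = 0.00339)), Hyou1 (-1.33 ± 0.27 (SE; adjusted p = 0.027)), Sdf2l1 (-2.24 ± 0.45 (SE; adjusted p = 0.027)), Creld2 (-2.07 ± 0.30 (SE; adjusted p = 0.00249)) and Pdia4 (-1.48 ± 0.23 (SE; adjusted p = 0.00338)). These 6 of the 40 genes of the whole table whose effect fell over that week are BiP, 2 of its cofactors, GRP94 and a pair of disulfide chemistry genes, and the same 6 members were called under median-of-ratios scaling (0.131% of tested genes fell and 0.42% rose). From day 1 to day 14 the effect fell for 5 members and rose for 0, against 5.08% and 5.21% of tested genes. They were Creld2 (-2.34 ± 0.30 (SE; adjusted p = 7.97e-05)), Hspa5 (-1.09 ± 0.24 (SE; adjusted p = 0.00692)), Sdf2l1 (-1.62 ± 0.45 (SE; adjusted p = 0.0267)), Pdia4 (-0.78 ± 0.23 (SE; adjusted p = 0.0353)) and Derl3 (-2.01 ± 0.59 (SE; adjusted p = 0.037)). The 3 differences of effects share groups and are not independent of each other. With sham day 14 as the sham of day 14, no translocon or sensor member passed in any of them.

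The effects of day 14 rest on the sham group of that day, which stood apart from the earlier sham groups for these genes. In 12 of the 32 members all 3 sham libraries of day 14 lay above all 6 sham libraries of days 1 and 7, against 1.33% of tested genes, and in 0 members they lay below, against 1.8%. The 12 were 7 chaperones or cofactors (Hspa5, Hsp90b1, Hyou1, Sdf2l1, Dnajb11, Dnajc3 and Creld2), 3 lectin or disulfide genes (Canx, Pdia4 and Pdia6) and 2 degradation genes (Syvn1 and Sel1l). No translocon or sensor member was among them. Hspa5 in sham measured 134, 174 and 161 FPKM at day 1, 152, 127 and 173 FPKM at day 7 and 353, 261 and 239 FPKM at day 14. Hsp90b1 in sham measured 151, 159.9 and 165 FPKM at day 1, 158, 149.8 and 192 FPKM at day 7 and 275, 226 and 282 FPKM at day 14. Creld2 in sham measured 11.6, 9.38 and 8.0 FPKM at day 1, 9.39, 9.12 and 9.93 FPKM at day 7 and 23.8, 24.01 and 16.5 FPKM at day 14. For all 3 genes the groups of days 1 and 7 overlapped and that of day 14 stood above both.

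None of these shifts passed the test across all genes. Between sham groups, 0 members were called in day 7 over day 1, in day 14 over day 7 or in day 14 over day 1, against 0.0%, 0.0% and 0.00656% of tested genes, the last being the single gene Hsph1, a cytosolic Hsp110 chaperone. At an unadjusted limma p below 0.05 there were 0, 12 and 11 members (374, 570 and 746 genes in all), and median-of-ratios scaling called 0 members as well. Sham day 14 over sham day 1 was 0.85 ± 0.17 (SE; adjusted p = 0.27) for Hspa5, 0.71 ± 0.13 (SE; adjusted p = 0.173) for Hsp90b1, 1.07 ± 0.21 (SE; adjusted p = 0.27) for Creld2, 1.15 ± 0.32 (SE; adjusted p = 0.743) for Sdf2l1 and 0.62 ± 0.16 (SE; adjusted p = 0.651) for Pdia4. Of the 26 members with a promoter in the table, all 3 sham libraries of day 14 stood above the earlier 6 for 7 of the 9 with an ERSE before the start and for 4 of the 17 without one, against 1.33% of tested genes. The 17 include Herpud1 and Dnajb11, which hold an ERSE-II, and Dnajb11 is 1 of the 4. At day 7, 7 of the 9 with an ERSE and 7 of the 17 without were higher in transplant, against 35.5% of tested genes, but 1 of the 9 and 1 of the 17 under median-of-ratios scaling (11.7%). At day 14, 5 of the 9 and 5 of the 17 were lower, against 5.12% of tested genes, and 8 of the 9 and 8 of the 17 under median-of-ratios scaling (11.1%). Only exact matches were counted, and no translocon or sensor member in the promoter table held an ERSE, so the split also follows role. Whether the element bears on any of these counts was not tested.

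**Figure D3:**
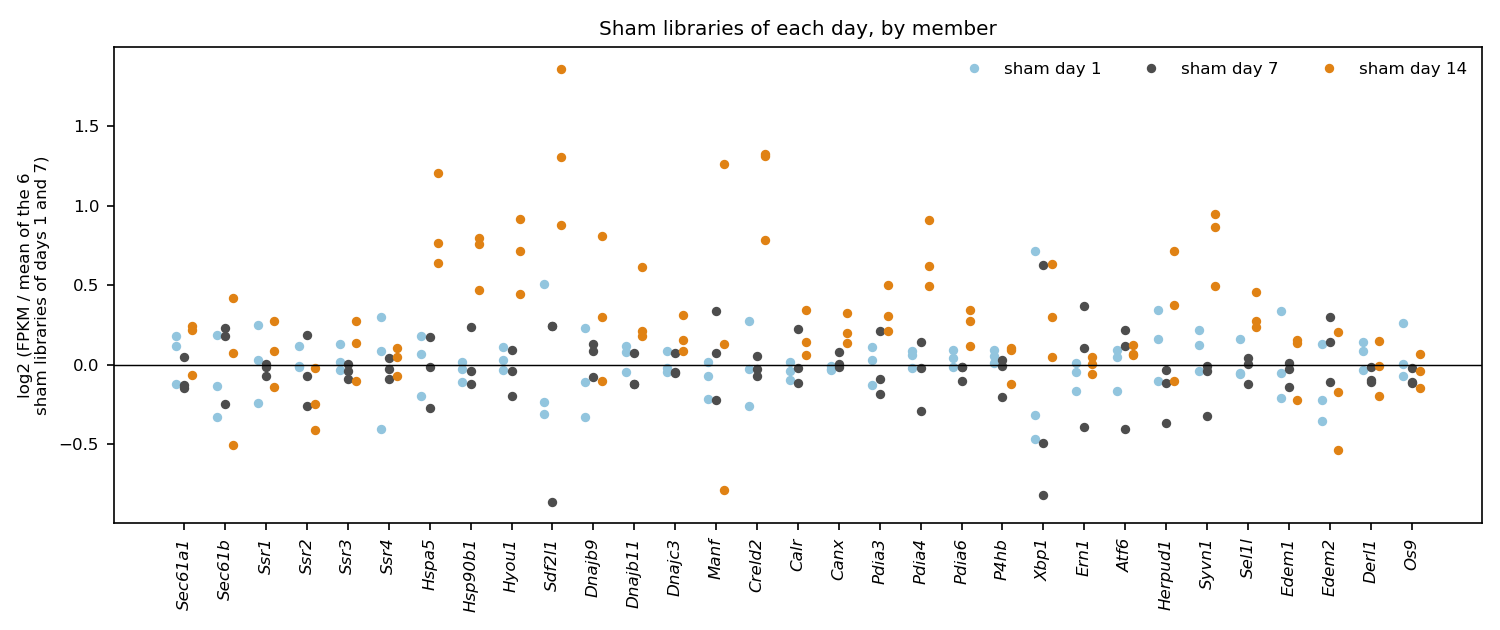
Log2 ratio of each sham library to the mean FPKM of the 6 sham libraries of days 1 and 7, for 31 members (Derl3, listed at 0 in 1 sham library, is not drawn), with day 1, day 7 and day 14 side by side. The day 14 libraries lie above all 6 earlier ones for 12 members, among them Hspa5, Hsp90b1, Creld2 and Pdia4.

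When the 6 sham libraries of days 1 and 7 were put in place of sham day 14, an alternative chosen after the data were seen, the day 14 effect had 1 member higher and 2 lower, against 27.2% and 6.44% of tested genes. Sec61a1 was higher, at 0.57 ± 0.13 (SE; adjusted p = 0.00252), and Edem1 and Herpud1 were lower, at -0.59 ± 0.13 (SE; adjusted p = 0.00202) and -0.47 ± 0.17 (SE; adjusted p = 0.0378). Hspa5 and Creld2 kept a negative sign but did not pass, at -0.20 ± 0.15 (SE; adjusted p = 0.312) and -0.30 ± 0.18 (SE; adjusted p = 0.222). Hsp90b1, Sdf2l1 and Pdia4 turned sign, at 0.15 ± 0.11 (SE; adjusted p = 0.321), 0.07 ± 0.28 (SE; adjusted p = 0.869) and 0.22 ± 0.14 (SE; adjusted p = 0.227). Of the members with a promoter in the table, 0 of the 9 with an ERSE and 2 of the 17 without were lower. The 2 were Edem1 and Herpud1, of which Herpud1 holds an ERSE-II. With this sham the effect fell for 3 members and rose for 0 between days 7 and 14 (1.05% and 0.819% of tested genes). The 3 were Hspa5, at -1.19 ± 0.19 (SE; adjusted p = 0.00261), Creld2, at -0.996 ± 0.24 (SE; adjusted p = 0.0376), and Pdia4, at -0.81 ± 0.18 (SE; adjusted p = 0.0242). The calls of Hsp90b1, Hyou1 and Sdf2l1 were lost, at -0.51 ± 0.14 (SE; adjusted p = 0.0799), -0.66 ± 0.21 (SE; adjusted p = 0.122) and -1.05 ± 0.36 (SE; adjusted p = 0.145). Between days 1 and 14 it fell for 4 members and rose for 1 (9.72% and 8.24% of tested genes). Of the 5 that fell with sham day 14 only Creld2, at -1.26 ± 0.24 (SE; adjusted p = 0.0011), was called again, and Hspa5, Sdf2l1, Pdia4 and Derl3 were lost, at -0.22 ± 0.19 (SE; adjusted p = 0.479), -0.43 ± 0.36 (SE; adjusted p = 0.44), -0.11 ± 0.18 (SE; adjusted p = 0.72) and -1.06 ± 0.47 (SE; adjusted p = 0.129). The other 3 that fell were the translocon genes Sec61b, at -0.92 ± 0.27 (SE; adjusted p = 0.0227), and Ssr2, at -0.54 ± 0.18 (SE; adjusted p = 0.0491), and Edem2, at -0.73 ± 0.21 (SE; adjusted p = 0.0203), and the effect rose for Herpud1, at 0.68 ± 0.21 (SE; adjusted p = 0.0343). None of the 6 chaperone calls of day 14 was made against the earlier sham libraries, and the calls of Edem1, Herpud1 and Sec61a1 were made against either.

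**Figure D4:**
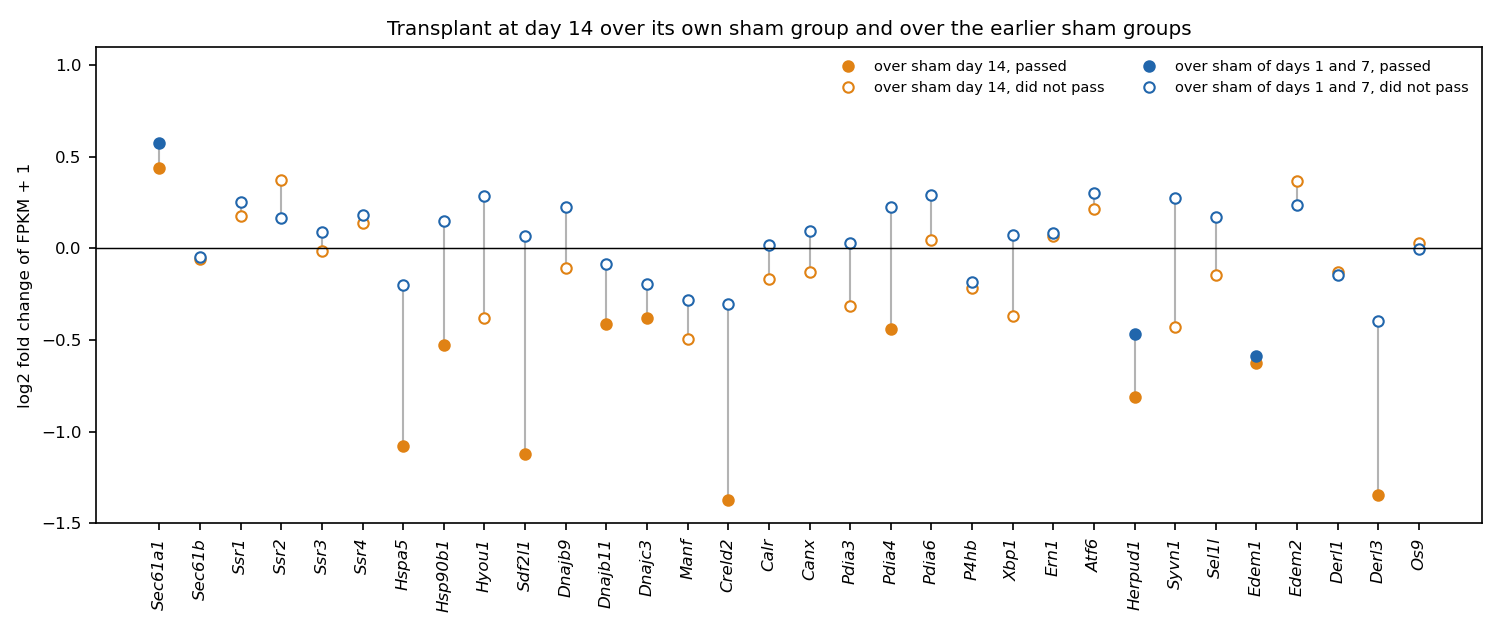
Log2 fold change at day 14 (log2(FPKM + 1) scale) of the 32 members over sham day 14 (orange) and over the sham libraries of days 1 and 7 (blue), with filled points for an adjusted p below 0.05. Hspa5, Sdf2l1 and Creld2 lie below -1 over sham day 14 and between -0.30 and 0.07 over the earlier sham libraries, while Edem1 is at -0.62 and -0.59.

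Neighbouring parts of the pathway were counted from other gene lists, to be read against all tested genes. Of these, 29.6%, 35.5% and 22.4% were higher and 9.56%, 6.01% and 5.12% lower at days 1, 7 and 14, and under median-of-ratios scaling 14.8%, 11.7% and 11.5% higher and 15.5%, 12.8% and 11.1% lower. PERK, the third sensor, and the integrated stress response it feeds had 10 of 12 genes higher and 0 lower at day 1 (median 1.06), 8 and 0 at day 7 (median 0.87) and 4 and 0 at day 14 (median 0.25). Under median-of-ratios scaling these were 6 and 0, 3 and 0, and 1 and 1. Asns, asparagine synthetase and an ATF4 target, averaged 15.9 ± 7.18 FPKM in transplant and 0.694 ± 0.353 FPKM in sham at day 1 (SD, n = 3 each; adjusted p = 4.03e-06). Atf3, a stress-induced transcription factor, averaged 5.7 ± 1.29 FPKM in transplant and 0.469 ± 0.249 FPKM in sham at day 1 (adjusted p = 2.53e-05) and 5.42 ± 1.77 FPKM in transplant and 0.457 ± 0.253 FPKM in sham at day 7 (adjusted p = 5.20e-05). Nupr1 averaged 13.9 ± 1.52 FPKM in transplant and 2.57 ± 0.83 FPKM in sham at day 7 and 13.5 ± 4.85 FPKM in transplant and 2.21 ± 0.336 FPKM in sham at day 14 (adjusted p = 1.89e-05 and 2.93e-05), and Cebpb 2.94 ± 1.32 FPKM in transplant and 1.0 ± 0.368 FPKM in sham at day 14 (adjusted p = 0.0305). Under median-of-ratios scaling Asns, Atf3 and Nupr1 passed on the days given and Cebpb did not (0.75, adjusted p = 0.0881). At day 1 Hspa5, at 0.01 ± 0.17, and Hsp90b1, at -0.11 ± 0.13, were not called, though Hsp90b1 was lower under median-of-ratios scaling. The difference between the lists was not tested.

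Among 17 other genes of translocation and signal peptide removal, 9 were higher and 1 lower at day 1, 6 and 0 at day 7, and 0 and 0 at day 14 (1 and 1, 1 and 1, and 0 and 3 under median-of-ratios scaling). Spcs3, a signal peptidase subunit, averaged 93.7 ± 29.6 FPKM in transplant and 18.5 ± 0.951 FPKM in sham at day 1 (adjusted p = 1.01e-08) and 47.9 ± 4.46 FPKM in transplant and 20.8 ± 0.435 FPKM in sham at day 7 (adjusted p = 3.25e-05). Srp14, of the signal recognition particle, averaged 37.8 ± 5.91 FPKM in transplant and 20.2 ± 5.07 FPKM in sham at day 1, Sec62, a Sec61 partner, 47.8 ± 3.64 FPKM in transplant and 79.3 ± 6.46 FPKM in sham at day 1, and Sec63 21.6 ± 3.49 FPKM in transplant and 14.9 ± 1.35 FPKM in sham at day 7 (adjusted p = 0.00217, 0.000177 and 0.012). Of 12 oligosaccharyl transferase genes, 3, 6 and 1 were higher and 0, 0 and 1 lower at days 1, 7 and 14 (1, 0 and 0 higher and 3, 1 and 3 lower under median-of-ratios scaling). The subunit Ostc averaged 36.2 ± 4.3 FPKM in transplant and 18.9 ± 4.11 FPKM in sham at day 1, 33.95 ± 3.0 FPKM in transplant and 18.5 ± 3.31 FPKM in sham at day 7 and 31.6 ± 5.54 FPKM in transplant and 21.1 ± 3.97 FPKM in sham at day 14 (adjusted p = 0.000535, 0.00123 and 0.0252). The catalytic subunits Stt3a and Stt3b averaged 23.2 ± 0.59 FPKM in transplant and 15.004 ± 1.05 FPKM in sham for Stt3a at day 1 and 47.6 ± 6.61 FPKM in transplant and 34.96 ± 0.203 FPKM in sham for Stt3b at day 7 (adjusted p = 0.002 and 0.00722). Magt1, an oxidoreductase subunit, averaged 26.8 ± 5.44 FPKM in transplant and 38.8 ± 2.46 FPKM in sham at day 14 (adjusted p = 0.011). Under median-of-ratios scaling Spcs3 on both days, Sec62, Magt1 and Ostc at day 1 passed. Srp14, Sec63, Stt3a, Stt3b and Ostc at days 7 and 14 did not, and Stt3b turned sign (-0.06, adjusted p = 0.788).

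Of 15 other degradation factors, 7, 6 and 0 were higher and 0, 0 and 0 lower at days 1, 7 and 14 (1, 0 and 0 higher and 1, 2 and 4 lower under median-of-ratios scaling). Vcp, the ATPase that pulls substrates out of the membrane, averaged 154 ± 13.3 FPKM in transplant and 101 ± 9.74 FPKM in sham at day 1, and Ubxn4, an ER protein that binds it, 32.6 ± 3.53 FPKM in transplant and 21.1 ± 0.886 FPKM in sham (adjusted p = 0.000475 and 0.000521). The ubiquitin-conjugating enzyme gene Ube2j1 averaged 16.9 ± 1.37 FPKM in transplant and 10.7 ± 1.59 FPKM in sham at day 7, and Edem3 23.7 ± 1.86 FPKM in transplant and 15.4 ± 4.04 FPKM in sham (adjusted p = 0.00358 and 0.00712). Under median-of-ratios scaling Vcp, Ubxn4, Ube2j1 and Edem3 did not pass (adjusted p = 0.162, 0.151, 0.437 and 0.565). Of 16 other folding and redox enzymes, 4, 7 and 2 were higher and 1, 0 and 0 lower (1, 1 and 1 higher and 5, 2 and 4 lower under median-of-ratios scaling). Txndc5, a disulfide isomerase, averaged 30.1 ± 4.41 FPKM in transplant and 19.9 ± 1.4 FPKM in sham at day 1, 40.7 ± 2.22 FPKM in transplant and 21.3 ± 2.95 FPKM in sham at day 7 and 34.1 ± 5.97 FPKM in transplant and 20.4 ± 1.37 FPKM in sham at day 14 (adjusted p = 0.00456, 9.71e-05 and 0.00153). Ppib, the ER cyclophilin, averaged 155 ± 12.4 FPKM in transplant and 102 ± 9.08 FPKM in sham at day 7 and 130.4 ± 8.21 FPKM in transplant and 102 ± 13.3 FPKM in sham at day 14, and Fkbp11 5.0 ± 1.9 FPKM in transplant and 1.02 ± 0.183 FPKM in sham at day 1 (adjusted p = 0.000612, 0.0312 and 0.0075). The oxidase gene Ero1lb averaged 3.01 ± 1.55 FPKM in transplant and 6.68 ± 1.15 FPKM in sham at day 1 (adjusted p = 0.0022). Under median-of-ratios scaling Txndc5 at days 7 and 14, Fkbp11 and Ero1lb passed. Txndc5 at day 1 and Ppib at days 7 and 14 did not (adjusted p = 0.297, 0.531 and 0.879). Of 14 genes of export from the ER, 6, 8 and 0 were higher and 0, 0 and 1 lower (2, 0 and 0 higher and 2, 2 and 2 lower under median-of-ratios scaling). The lists of translocation, glycosylation, degradation, folding and export genes each had a smaller share called higher at day 14 than all tested genes, as did the glycosylation and folding lists at day 1 and the translocation list, narrowly, at day 7.

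Markers of other cells were counted against the same shares of all tested genes. Of 10 fibroblast markers, 8, 10 and 9 were higher at days 1, 7 and 14, with 1, 0 and 0 lower, and their summed FPKM at day 7 was 173 to 408 in transplant and 33.6 to 41.1 in sham. Of 10 macrophage markers, 4, 10 and 10 were higher and 1, 0 and 0 lower, and of 9 tested markers of dividing cells 2, 9 and 6 were higher and 0 lower. All 10 proximal tubule markers were lower at day 1, 7 at day 7 and 4 at day 14, and 0 were higher. Plasma cells, which are rich in ER, were near the limit of these data. Of 10 plasma cell markers 5 stayed below 1 FPKM in every library, among them Tnfrsf17, listed at 0 in all, and 4 were tested, of which 1, 3 and 3 were higher. Under median-of-ratios scaling the markers higher at days 1, 7 and 14 were 5, 9 and 9 for fibroblasts, 2, 10 and 9 for macrophages, 1, 9 and 4 for dividing cells and 1, 1 and 2 for plasma cells, and 10, 8 and 6 proximal tubule markers were lower. The macrophage sum at day 14 was 164 to 324 in transplant. In sham it was 20.2 to 28.0 at day 1, 19.9 to 35.1 at day 7 and 24.4 to 29.5 at day 14. The part of these cells in the members' values was not tested.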

How the data were processed

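RNA-seq of mouse kidney cortex was available as 1 table of FPKM values for 18 libraries, which the authors deposited. According to the submitters' processing notes the build was mm10 and DESeq2 was among the tools, with no role stated. Aligner, quantifier, annotation and use of strand were not given in the sources used here. Symbols in the deposited table lack capital A and N, so genes were matched by identifier to GENCODE M21 (GRCm38), which paired 54733 of 54848 rows. 17 rows with repeated identifiers were left out. The values of the 18 columns are raw FPKM, so whole counts and depth are unknown. Libraries differed from each other, with 0 identical pairs.

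Genes that reached 1 FPKM in 3 or more libraries were tested with limma 3.58.1 in R 4.3.3 on log2(FPKM + 1). The model had the 6 group means, with a trend in the variance and robust moderation, and p-values were adjusted by Benjamini-Hochberg over all 15254 tested genes within a comparison. Transplant was compared with sham at each day, the 3 effects with each other and the 3 sham groups with each other. The test was checked on simulated data. Members, gene lists and role groups were chosen with earlier results of these data known. The text names all 32 members and, per other pathway list and day, up to 2 called genes a direction by smallest adjusted p; the cell marker lists, to which this rule also applied, are given as counts and sums only. Values of every library are given for the called members with the largest changes in each role and for the sensors and Hspa5. Promoters were searched in Python 3.11.15 with pandas 2.3.3, and figures were drawn with matplotlib 3.10.9. The alternatives comprised median-of-ratios scaling, pseudocounts of 0.1 or 5, testing without a filter or above a mean FPKM of 5, the same sum in every library, only the groups compared, moderation that was not robust, the replicate number as a block and each library left out. 2 other sham references were added after the data were seen. With 3 libraries a group, the precision is given by the SE of each fold change.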

Additional observations from a re-analysis of the deposited data

Results flagged for a closer look

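Some members differed in their transplant effect between days by a test of the difference itself. Values are differences of log2 fold changes on the log2(FPKM + 1) scale (limma; 3 libraries in each of 4 groups). Between day 1 and day 7 the effect was higher for Hspa5 by 0.98, for Hsp90b1 by 0.77 and for Dnajc3 by 0.61. These calls were lost without 7, 5 and 8 of the 12 libraries, each left out alone, with adjusted p up to 0.0763, 0.0612 and 0.0794, and under median-of-ratios scaling Hspa5 was the 1 that passed.

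Between day 7 and day 14 the effect was at -2.07 for Hspa5, -1.19 for Hsp90b1, -1.33 for Hyou1, -2.24 for Sdf2l1, -2.07 for Creld2 and -1.48 for Pdia4. Those of Hspa5, Hsp90b1, Creld2 and Pdia4 passed without any 1 library, but with the sham libraries of days 1 and 7 in place of sham day 14 that of Hsp90b1 did not (-0.51, adjusted p = 0.0799). That of Hyou1 was lost without 9 of the 12 libraries and that of Sdf2l1 without 6 (adjusted p up to 0.0851 and 0.0912).

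Between day 1 and day 14 the effect was at -1.09 for Hspa5, -1.62 for Sdf2l1, -2.34 for Creld2, -0.78 for Pdia4 and -2.01 for Derl3. Hspa5 and Creld2 passed without any 1 library, but with the earlier sham libraries Creld2 alone of the 5 passed (-1.26, adjusted p = 0.0011), and Hspa5 was at -0.22 (adjusted p = 0.479). In the leave-one-out fits Sdf2l1, Pdia4 and Derl3 were lost without 5, 8 and 8 of the 12 (adjusted p up to 0.075, 0.097 and 0.102). In sham libraries of day 14 every one of these genes except Derl3 had 3 values above the 6 of days 1 and 7, and the part of that shift in the differences was not tested beyond the exchange of the sham group given above.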

How the results depend on the processing

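Scaling and the choice of sham moved the counts most. Under median-of-ratios scaling the members higher and lower were 3 and 11 at day 1, 3 and 4 at day 7 and 0 and 18 at day 14, and 1 member rose in effect between days 1 and 7. All genes higher and lower were then 2250 and 2365, 1780 and 1950, and 1754 and 1698, in place of 4519 and 1458, 5420 and 917, and 3419 and 781. Day 7 signs turned for Dnajb11 (-0.087), Canx (-0.20), Dnajc3 (-0.40), Atf6 (-0.0091) and Pdia3 (-0.10). With the same sum in every library, 3 members were higher at day 14, 10 rose in effect between days 1 and 7 and 10 fell between days 7 and 14, and 8519 genes were higher at day 7. With no filter, 0 members were higher at day 14 and 2 fell in effect between days 1 and 14. A mean FPKM of at least 5 gave 7 members that rose in effect between days 1 and 7, and 3591 and 2049 genes higher at days 7 and 14. With only the groups compared, 0 members were higher and 6 lower at day 14, 2257 genes were higher, and 3 members fell in effect between days 1 and 14.

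Both other sham references were chosen after the data were seen. Sham of days 1 and 7 in place of sham day 14 left 2 members lower at day 14 and 3 with a fall in effect from day 7, and 1 rose from day 1; Hsp90b1 (0.15), Sdf2l1 (0.071) and Pdia4 (0.22) turned sign. The mean of the 3 sham groups gave 8, 15 and 1 members higher and 7, 1 and 5 lower at days 1, 7 and 14. All genes higher were then 5787, 6954 and 4533, and lower 1719, 1176 and 1057, of 15254 tested. The 5 members lower at day 14 were Hspa5 (-0.49), Creld2 (-0.66), Dnajc3 (-0.26), Edem1 (-0.60) and Herpud1 (-0.58), and Pdia4 was at 0.00265. Pseudocounts of 0.1 and 5 changed no member call.

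Leaving out 1 library gave 6 to 9 members higher and 2 to 4 lower at day 1, 13 to 18 and 0 at day 7, and 0 to 1 and 6 to 10 at day 14. The effect rose for 0 to 7 between days 1 and 7 and fell for 4 to 6 between days 7 and 14 and for 2 to 6 between days 1 and 14. All genes higher and lower were 3634 to 4455 and 1262 to 1416 at day 1, 4241 to 4582 and 753 to 806 at day 7, and 2586 to 3124 and 586 to 714 at day 14. Of 53 called member results 28 passed without any 1 library. A further 196 sign changes had no call under either setting.

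Equal replicate numbers gave no clear pairing of the libraries. Correlations of their deviations over 9 pairs ran from -0.0387 to 0.1038, and 4 of 9 were highest with their own number, among them every pair of day 7. Low correlations cannot show that the libraries were unpaired in the design. The replicate number as a block lowered the members lower at day 14 to 8, with 2 member calls lost in all. Depth is unknown and limits low genes such as Derl3. The labels conflict on model and species, and no count test could be run.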

Other observations

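The members' share of each library's FPKM sum was 0.334% to 0.428% in transplant and 0.345% to 0.367% in sham at day 1, 0.592% to 0.624% in transplant and 0.337% to 0.361% in sham at day 7, and 0.398% to 0.408% in transplant and 0.419% to 0.505% in sham at day 14. These shares share a total with mitochondrial transcripts, which held less of it in transplant libraries.

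Genes that carry cargo out of the ER or fold collagen in it were followed too. Surf4, a cargo receptor, averaged 78.9 ± 15.3 FPKM in transplant and 41.2 ± 2.30 FPKM in sham at day 1, and the COPII coat gene Sec24d 11.8 ± 3.13 FPKM in transplant and 5.10 ± 0.403 FPKM in sham (SD, n = 3 each; limma adjusted p = 2.96e-05 and 0.00103). Tmed2 averaged 84.6 ± 1.48 FPKM in transplant and 54.8 ± 5.96 FPKM in sham at day 7, and Sar1a 42.2 ± 2.84 FPKM in transplant and 28.1 ± 0.897 FPKM in sham (adjusted p = 0.000452 and 0.000882). Sar1b averaged 42.4 ± 10.4 FPKM in transplant and 59.9 ± 6.59 FPKM in sham at day 14 (adjusted p = 0.0163). Under median-of-ratios scaling Surf4, Sec24d and Sar1b passed, while Tmed2 and Sar1a did not (adjusted p = 0.46 and 0.61). Counts of the lists that follow stand beside 29.6%, 35.5% and 22.4% of all tested genes higher and 9.56%, 6.01% and 5.12% lower at days 1, 7 and 14. Of 10 tested collagen folding genes, 7, 7 and 4 were higher and 1, 0 and 1 lower at days 1, 7 and 14 (3, 3 and 3 higher and 1, 0 and 1 lower under median-of-ratios scaling). Serpinh1, the collagen chaperone HSP47, averaged 53.4 ± 18.7 FPKM in transplant and 18.6 ± 2.12 FPKM in sham at day 1, 72.9 ± 6.98 FPKM in transplant and 20.3 ± 3.62 FPKM in sham at day 7 and 57.7 ± 4.99 FPKM in transplant and 27.1 ± 6.47 FPKM in sham at day 14 (adjusted p = 2.66e-05, 3.12e-06 and 0.000811). Unlike Hspa5, Serpinh1 was higher in transplant at day 14. Plod3, a lysyl hydroxylase, averaged 17.7 ± 6.75 FPKM in transplant and 5.38 ± 0.639 FPKM in sham at day 1 and 13.2 ± 0.685 FPKM in transplant and 5.10 ± 0.319 FPKM in sham at day 7 (adjusted p = 1.82e-05 and 0.000206). P3h2, a prolyl hydroxylase, averaged 18.4 ± 3.17 FPKM in transplant and 26.5 ± 2.04 FPKM in sham at day 1 (adjusted p = 0.0307). At day 14 the collagen prolyl isomerase gene Fkbp10 averaged 3.004 ± 1.37 FPKM in transplant and 0.519 ± 0.414 FPKM in sham, and P4ha1, a collagen prolyl hydroxylase subunit, 14.7 ± 1.74 FPKM in transplant and 24.7 ± 4.09 FPKM in sham (adjusted p = 0.0012 and 0.00753).

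Of 10 ER calcium genes, 3, 4 and 5 were higher and 2, 0 and 1 lower (3, 3 and 5 higher and 2, 1 and 2 lower under median-of-ratios scaling). Rcn1 and Calu, which encode calcium-binding proteins of the secretory pathway, averaged 14.4 ± 3.22 FPKM in transplant and 2.57 ± 0.722 FPKM in sham for Rcn1 at day 1 and 64.4 ± 8.32 FPKM in transplant and 26.2 ± 2.82 FPKM in sham for Calu at day 7 (adjusted p = 9.44e-07 and 2.18e-06). Both were higher on both of these days, and Rcn1 at day 14 as well, at 13.4 ± 3.57 FPKM in transplant and 2.73 ± 0.804 FPKM in sham (adjusted p = 8.35e-06). The calcium release channel genes Itpr1 and Itpr2 were lower at day 1, at 34.2 ± 4.63 FPKM in transplant and 44.3 ± 5.57 FPKM in sham for Itpr1 and 5.86 ± 0.669 FPKM in transplant and 9.41 ± 2.27 FPKM in sham for Itpr2 (adjusted p = 0.0314 and 0.023). Their relative Itpr3 was higher at day 14, at 3.12 ± 1.02 FPKM in transplant and 0.669 ± 0.331 FPKM in sham (adjusted p = 0.000726). Atp2a2, the calcium pump SERCA2, was lower at day 14, at 67.9 ± 10.2 FPKM in transplant and 107 ± 20.7 FPKM in sham (adjusted p = 0.0167).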
